A study of Neurospora crassa with 14 samples.

Results

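Loss of rlp2 in the filamentous fungus Neurospora crassa was compared with wild type by messenger RNA sequencing. The comparison is the authors' deposited table for the rlp2 deletion, taken whole, with 9477 genes of the 9552 listed in any table of the series. The rlp2 deletion group was 2 libraries, from strains N6706 and N6707, whose labels give the genotype as a deletion of rlp2 (NCU02898). The wild type group was 2 libraries, from strains N3752 and N3753. The series holds 14 libraries in all. Deletions of rlp1 (NCU09007, strains N8185 and N8186), sds3 (NCU01599, strains N8193 and N8194) and eaf-3 (NCU06788, strains N5278 and N6169) have 2 libraries each. Trichostatin A (TSA) was given to strain N6279, whose genotype is given as his-3 with the resistance genes hph and nat-1 behind the promoters of NCU05173 and NCU07152, with 2 libraries at 5 ul and 2 untreated ones. Per the labels, cultures of 5 ml in Vogel's minimal medium with 1.5% sucrose were shaken at 32 °C over 16 h, and a KAPA stranded mRNA kit was used for the libraries. The labels give no mating type and do not say whether N6706 and N6707 came from separate transformants. Other libraries of the series may enter the authors' fit, so the p-values are not a measure of the spread between these 2 strains alone.

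Rpd3 is a histone deacetylase that works in large and small complexes, known from yeast as Rpd3L and Rpd3S, which remove acetyl groups from histones and mostly keep genes silent. Sds3 is a yeast subunit of the large complex and Eaf3 of the small one. In Neurospora a second silencing system, the methyltransferase SET-7 of the Polycomb repressive complex PRC2, marks facultative heterochromatin, much of which lies close to chromosome ends. The series' design text gives as its question how transcription across the genome depends on these deacetylase complexes.

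The authors' deposited table holds 1 row per gene with an average of normalized counts, a log2 fold change of the rlp2 deletion over wild type, a p-value and an FDR, and no value of any single library. Depth, the values of single libraries and any overlap of the groups could therefore not be read. The sign ± marks the standard error that the deposited p-value implies, and an implied mean is a group's level worked out from the average and the fold changes of the 4 deletion tables, assuming that the average covers all 10 libraries of the deletion set equally. Levels are in normalized counts and are not scaled by gene length, so they are compared within a gene only. A gene is called higher or lower where its deposited FDR was under 0.05, and "rose" and "fell" are used of such genes alone. Genes with an implied wild type mean close to 0 have fitted fold changes that are no bounds. In bulk RNA, fewer cells of a type and less RNA per cell cannot be told apart, and overlapping or antisense neighbours cannot be separated because the strand setting of the counting was not given in the sources used here.

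The deleted gene fell in the strains labelled for it. The implied mean of rlp2 was 44.7 in the rlp2 deletion and 345 in wild type. In the rlp1, sds3 and eaf-3 deletions its implied means were 785, 428 and 260, and it rose by 1.19 ± 0.28 without rlp1 in the authors' deposited table of that deletion (FDR = 0.000412). In the authors' deposited table for the rlp2 deletion it fell by 2.95 ± 0.32 on the log2 scale (FDR = 5.93e-18), to 12.98% of its wild type level (8.45% to 19.95%, normal 95% interval). The files do not show which part of the gene was removed. The targets of the other deletions differed in what was left of them. The implied mean of rlp1 was 72.6 in the rlp1 deletion and 148 in wild type (-1.03 ± 0.33, FDR = 0.0111, in the authors' deposited table of that deletion). That of sds3 was 476 in the sds3 deletion and 807 in wild type (-0.76 ± 0.19, FDR = 0.00059, in the authors' deposited table of that deletion), and that of eaf-3 was 0.191 in the eaf-3 deletion and 94.6 in wild type. The rlp1 and sds3 groups are called deletions by their labels, and their targets kept a larger part of the wild type level than rlp2 and eaf-3 did in theirs. In the rlp2 table the other 3 targets did not pass. Their log2 fold changes in the authors' deposited table were -0.02 ± 0.31 for rlp1, -0.13 ± 0.19 for sds3 and 0.06 ± 0.32 for eaf-3.

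More genes rose than fell without rlp2, and the rises were larger. Of 8374 genes with an FDR, 585 rose (6.99%) and 337 fell (4.02%), and the median log2 fold change over all of them was -0.01. The genes that rose had a median log2 fold change of 1.49 with quartiles of 0.99 and 2.18. Their median implied mean was 514 in the rlp2 deletion and 163 in wild type. The genes that fell had a median of -0.96 with quartiles of -1.19 and -0.78, and a median implied mean of 412 in the rlp2 deletion and 818 in wild type. A log2 fold change beyond 2 was reached by 171 genes that rose (1.8% of all 9477) and by 15 that fell (0.158%), which are the genes the authors' own category marks. Of the 610 tested genes with an implied wild type mean under 10, 67 rose, and of the 170 under 1, 19 rose. Genes this low in wild type could pass the filter on the average through another group's level alone. Among genes with an average under 100, 91 of 1623 rose and 13 fell. In the band of averages between 100 and 1000, 340 of 4280 rose and 226 fell, and between 1000 and 10000 141 of 2249 rose and 94 fell. At averages of 10000 and above, 13 of 222 rose and 4 fell, with a median log2 fold change of -0.37.

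**Figure D1:**
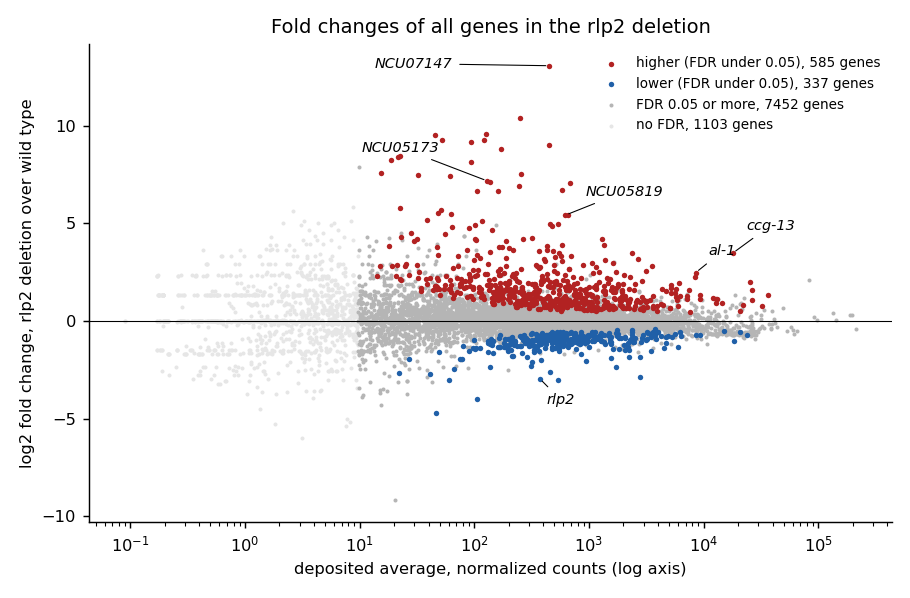
Each point is a gene, with the deposited average of normalized counts on a log axis and the log2 fold change of the rlp2 deletion over wild type on the vertical axis. The 585 red genes reach 13.07 (NCU07147), while the 337 blue genes stop at -4.70, and the deleted gene rlp2 sits at -2.95.

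Among genes without a symbol, several of the firmest rises were large, and a ranking by FDR favours large changes. NCU05819 had an implied mean of 978 in the rlp2 deletion and 22.8 in wild type, and rose by 5.42 ± 0.36 in the authors' deposited table (FDR = 6.3e-47). NCU01812 reached 797 in the rlp2 deletion, against 18.3 in wild type, a rise of 5.45 ± 0.40 in the authors' deposited table (FDR = 4.3e-39). NCU00787 had implied means of 853 without rlp2 and 29.0 in wild type, with a rise of 4.88 ± 0.36 in the authors' deposited table (FDR = 1.65e-37). NCU05819 lies 88, NCU01812 513 and NCU00787 649 genes from the nearer chromosome end. NCU01056 stood at 599 in the rlp2 deletion and 19.4 in wild type and rose by 4.95 ± 0.49 in the authors' deposited table (FDR = 4.71e-21). NCU09416, at 590 in the rlp2 deletion and 3.25 in wild type, rose by 7.50 ± 0.62 in the authors' deposited table (FDR = 4.07e-30). NCU05766, at 418 in the rlp2 deletion and 13.3 in wild type, rose by 4.98 ± 0.45 in the authors' deposited table (FDR = 1.76e-25). Of the 12 rises with the smallest FDR, the remaining named ones are tnr-1, which rose by 4.19 ± 0.38 in the authors' deposited table (implied means of 262 in the rlp2 deletion and 14.4 in wild type), and genes at chromosome ends described further on.

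Genes with a symbol that rose most firmly came from several functions. The gene cao-2 encodes the oxygenase that cleaves torulene on the way to neurosporaxanthin, and lies 2 genes from the left end of linkage group VII. The implied mean of cao-2 was 1390 in the rlp2 deletion and 422 in wild type (1.72 ± 0.19 and FDR = 1.77e-16 in the authors' deposited table). The gene pho-3, for a repressible acid phosphatase, had implied means of 615 without rlp2 and 42.5 in wild type and rose by 3.86 ± 0.44 in the authors' deposited table (FDR = 7.17e-16). The gene cat-2, for a catalase-peroxidase, stood at 2008 without rlp2 and 392 in wild type and rose by 2.36 ± 0.31 in the authors' deposited table (FDR = 9.13e-12). The transcription factor gene sah-1, needed for normal aerial hyphae, had implied means of 1609 without rlp2 and 468 in wild type (1.78 ± 0.29 and FDR = 1.54e-07 in the authors' deposited table). The gene acu-6, for the gluconeogenic enzyme phosphoenolpyruvate carboxykinase, had implied means of 2678 in the rlp2 deletion and 913 in wild type (1.55 ± 0.29 and FDR = 6.36e-06 in the authors' deposited table). These genes belong to pigment synthesis, phosphate supply, oxidative defence, aerial growth and gluconeogenesis.

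The firmest falls were smaller than the firmest rises. NCU05254 fell by 1.22 ± 0.21 (FDR = 7.22e-07) in the authors' deposited table, with implied means of 194 in the rlp2 deletion and 451 in wild type. NCU05650 fell by 1.41 ± 0.25 in the authors' deposited table (FDR = 1.69e-06), at 1090 without rlp2 and 2905 in wild type. NCU07942 fell by 1.48 ± 0.27 in the authors' deposited table (FDR = 2.04e-06), at 103 in the rlp2 deletion and 288 in wild type. The 12 falls with the smallest FDR ran from -2.95 for rlp2 and -2.59 ± 0.49 for NCU04805 to -0.94 ± 0.18 for NCU08595 in the authors' deposited table. Of the genes with a symbol, acw-12, for a cell wall protein, had implied means of 1544 in the rlp2 deletion and 4443 in wild type (-1.52 ± 0.33 in the authors' deposited table). The ornithine decarboxylase gene spe-1, the entry step of polyamine synthesis, had implied means of 2687 without rlp2 and 5136 in wild type (-0.93 ± 0.24 in the authors' deposited table). The gene cyt-19 encodes a helicase that helps mitochondrial introns fold for splicing, and it fell by 1.02 ± 0.26 in the authors' deposited table. The others with a symbol were fkr-4, pod-5, stk-25, ad-7, ndi-1, col-20, lys-3, un-18 and gpr-2, with log2 fold changes from -1.60 to -0.98 in the authors' deposited table.

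Blue-light responses run through the White Collar complex of WC-1 and WC-2, which switches on carotenoid genes and the photoreceptor VVD that then dampens the response. Most genes of the carotenoid list rose. Of its 6 genes with an FDR, 4 rose (66.7%) and none fell, against 6.99% and 4.02% over all tested genes, with a median log2 fold change of 1.36. The list was drawn up by name, and whether its oxygenase gene cao-1 belongs to the pathway was not tested. The gene al-1, for phytoene desaturase, had an implied mean of 2885 in the rlp2 deletion and 518 in wild type (2.48 ± 0.42 in the authors' deposited table). The gene al-2, for the enzyme that makes phytoene and cyclizes the product, stood at 3164 in the rlp2 deletion and 872 in wild type (1.86 ± 0.39, FDR = 0.000107, in the authors' deposited table). The oxygenase gene cao-1 was at 361 without rlp2 and 181 in wild type and barely passed (0.99 ± 0.35, FDR = 0.0435, in the authors' deposited table). The genes at either end of the pathway did not pass. The al-3 gene, for geranylgeranyl diphosphate synthase, was at 0.67 ± 0.25 (FDR = 0.0628) in the authors' deposited table. The last step, ylo-1, was at -0.52 ± 0.23 (FDR = 0.136) in the authors' deposited table.

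Of 16 genes in a list of photoreceptor, clock and light-induced bli genes, 6 rose (37.5%) and none fell (median log2 fold change 0.52). Most of the genes that rose are known to be induced by light. The gene bli-4 had implied means of 1016 in the rlp2 deletion and 112 in wild type and rose by 3.18 ± 0.41 in the authors' deposited table (FDR = 2.32e-12). The gene bli-3 stood at 1458 in the rlp2 deletion and 435 in wild type (1.75 ± 0.53, FDR = 0.0137, in the authors' deposited table). The photoreceptor gene vvd stood at 1362 in the rlp2 deletion and 233 in wild type, and the cryptochrome gene cry at 421 without rlp2 and 73.9 in wild type (2.51 ± 0.49 in the authors' deposited table). The opsin gene nop-1 stood at 287 in the rlp2 deletion and 61.2 in wild type (2.23 ± 0.73, FDR = 0.0268, in the authors' deposited table). The receptor gene wc-1 moved less, at 1030 without rlp2 and 675 in wild type (0.61 ± 0.18, FDR = 0.0101, in the authors' deposited table), and its partner wc-2 was at -0.02 ± 0.26 in the authors' deposited table. The clock gene frq was at 0.78 ± 0.42 (FDR = 0.249) and its helicase partner frh at -0.49 ± 0.28 (FDR = 0.297) in the authors' deposited table, and neither passed. The photolyase gene phr, at 0.84 ± 0.44, did not pass either in the authors' deposited table.

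Conidiation, the making of asexual spores on aerial hyphae, is driven by the transcription factor FL. Of 19 conidiation genes, 6 rose (31.6%) and none fell, with a median log2 fold change of 0.86. The gene fl itself had implied means of 1927 without rlp2 and 680 in wild type (1.50 ± 0.38, FDR = 0.00164, in the authors' deposited table). The clock-controlled gene ccg-13 was at 16515 in the rlp2 deletion and 1481 in wild type and rose by 3.48 ± 0.64 in the authors' deposited table (FDR = 3.33e-06). The gene con-8 stood at 2712 without rlp2 and 388 in wild type and rose by 2.80 ± 0.56 in the authors' deposited table. The repressor gene csp-1 was at 4215 in the rlp2 deletion and 1553 in wild type, a rise of 1.44 ± 0.29 in the authors' deposited table. The spore coat hydrophobin gene eas had implied means of 88426 without rlp2 and 20419 in wild type (2.11 ± 0.91) but did not pass (FDR = 0.119) in the authors' deposited table. Nor did con-10, at 389 in the rlp2 deletion and 66.2 in wild type (2.55 ± 0.96, FDR = 0.0624, in the authors' deposited table). The early regulators acon-2 and acon-3 were at 0.21 ± 0.26 and 0.20 ± 0.69 in the authors' deposited table. These genes mark aerial hyphae and conidia, and whether such cells were more common in the rlp2 deletion cultures was not tested.

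Of 14 genes of sexual development and meiosis, 3 rose (21.4%) and none fell (median log2 fold change 0.63). The abundant perithecial protein gene app stood at 1413 in the rlp2 deletion and 117 in wild type (3.59 ± 0.46 and FDR = 8.98e-13 in the authors' deposited table). The gene poi-2, needed for fruiting body development, stood at 55.1 in the rlp2 deletion and 12.5 in wild type and rose by 2.14 ± 0.43 in the authors' deposited table. The gene spo11, for the enzyme that makes meiotic double-strand breaks, stood at 42.8 without rlp2 and 0.935 in wild type and rose by 5.52 ± 1.13 in the authors' deposited table (FDR = 5.15e-05). The perithecial polyketide synthase gene per-1 was at 1.71 ± 0.88 (FDR = 0.227) and the meiotic recombinase gene mei-3 at 0.60 ± 0.46 in the authors' deposited table. None of 9 mating and pheromone genes passed. The standard errors of 2 pheromone precursor genes, ccg-4 (0.86 ± 2.12) and mfa-1 (1.52 ± 1.53), were wide in the authors' deposited table.

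**Figure D2:**
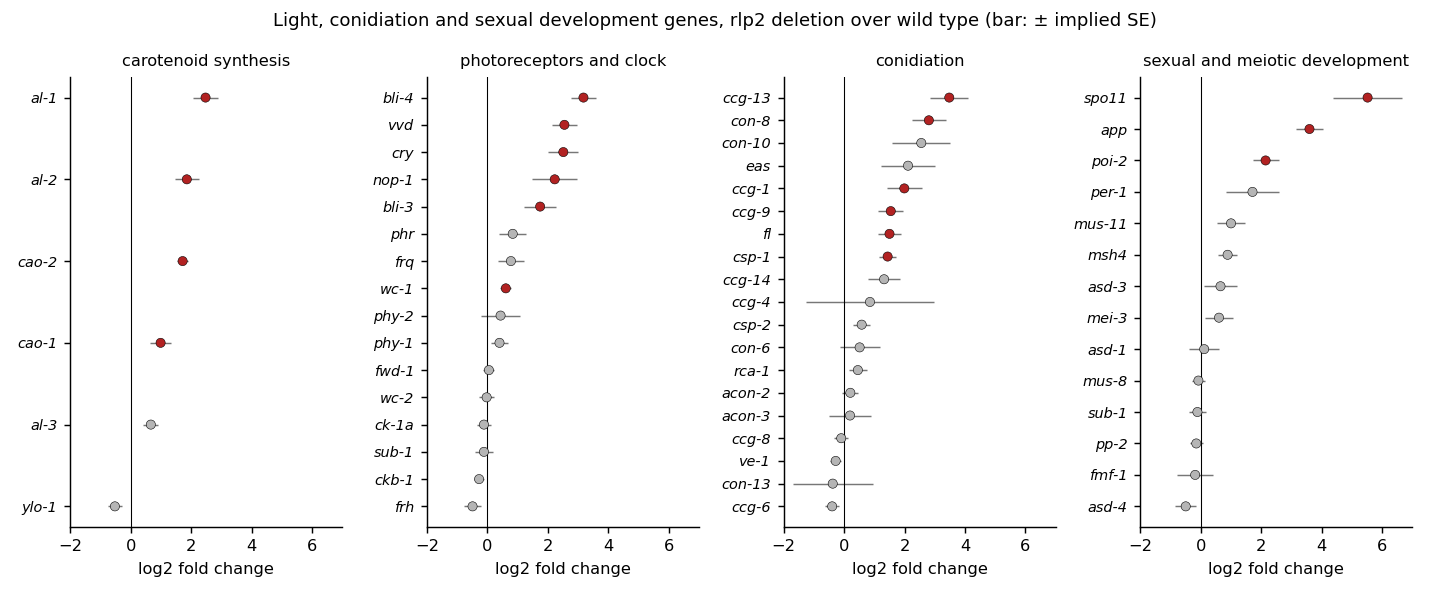
Log2 fold change of the rlp2 deletion over wild type (horizontal axis) for each gene of 4 lists, with red points for FDR under 0.05, grey points for the rest, and bars of 1 implied standard error either side. Every red point lies right of 0, the highest being spo11 at 5.52, and ylo-1, frh and asd-4 are among the grey points left of it.

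Of the genes for chromatin marks, histones and deacetylases that were looked up, 1 passed. The shares over all tested genes were 6.99% that rose and 4.02% that fell, and lists this short can hold no calls at such shares. Of 5 genes of the SET-7 complex and of histone H3 lysine methylation that were looked up, none passed. The gene set-7 was at 0.34 ± 0.21 and set-2, for the histone methyltransferase of transcribed genes, at -0.45 ± 0.23 in the authors' deposited table. None of 15 genes of constitutive heterochromatin and DNA methylation passed, with log2 fold changes from -0.32 to 0.53. Among these, dim-2, for the DNA methyltransferase, was at -0.21 ± 0.24 and dim-5, for the histone methyltransferase of constitutive heterochromatin, at 0.53 ± 0.40 in the authors' deposited table. None of 9 histone genes passed (from -0.30 to 0.54). Of 11 deacetylase and sirtuin genes, 1 rose (9.09%, against 6.99% of all tested genes). It was the sirtuin gene nst-7, with implied means of 141 in the rlp2 deletion and 44.5 in wild type (1.67 ± 0.41, FDR = 0.00125, in the authors' deposited table). It lies inside a run of 3 rising genes, 84 to 87 genes from an end of linkage group IV.

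By number, amino acid synthesis and mitochondrial import had the most falls of the lists. Of 48 amino acid synthesis genes, 7 fell (14.6%, against 4.02% of all tested genes) and 1 rose, with a median of -0.43, and 45 of the 48 had a negative value. The gene arg-2, for the small subunit of arginine-specific carbamoyl phosphate synthetase, had implied means of 1535 in the rlp2 deletion and 4282 in wild type (-1.48 ± 0.41, FDR = 0.00522, in the authors' deposited table). Its large-subunit partner arg-3 stood at 3990 in the rlp2 deletion and 7091 in wild type (-0.83 ± 0.26, FDR = 0.0202, in the authors' deposited table). The lysine gene lys-3 stood at 1975 without rlp2 and 3900 in wild type (-0.98 ± 0.25 in the authors' deposited table). The other falls were arg-6, arg-10, lys-6 and leu-4, and ilv-5 rose by 1.19 ± 0.28 in the authors' deposited table. None of 10 cytosolic ribosomal protein genes passed, though all 10 were negative, from -0.82 to -0.55. The genes with an average of 10000 or more, where all of these ribosomal genes belong, had a median of -0.37.

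Of 21 mitochondrial protein import genes, 3 fell (14.3%) and none rose (median -0.40). The gene tom40, for the channel of the outer membrane, had implied means of 1986 without rlp2 and 2914 in wild type (-0.55 ± 0.16, FDR = 0.00837, in the authors' deposited table). The gene tim44, which docks the import motor to the inner membrane, stood at 819 in the rlp2 deletion and 1560 in wild type (-0.93 ± 0.28 in the authors' deposited table), and tim54 fell by 0.63 ± 0.20 in the same authors' deposited table. Of 12 heat shock and chaperone genes, 2 fell (16.7%, against 4.02% of all tested genes). They were hsp60, the mitochondrial chaperonin gene (-0.94 ± 0.32, FDR = 0.0331), and hsp70-5 (-0.72 ± 0.26, FDR = 0.0472) in the authors' deposited table. Of 41 respiratory chain and ATP synthase genes, 1 fell (2.44%, below the 4.02% of all tested genes) and none rose (median -0.08). That gene was cyc-1, for cytochrome c, with implied means of 1437 without rlp2 and 5146 in wild type (-1.84 ± 0.60, FDR = 0.0241, in the authors' deposited table). Alternative NADH dehydrogenases went both ways. The internal enzyme gene ndi-1 stood at 322 in the rlp2 deletion and 821 in wild type and fell by 1.35 ± 0.32, while the external enzyme gene nde-1 stood at 2495 without rlp2 and 1238 in wild type and rose by 1.01 ± 0.29 in the authors' deposited table. Of the alternative oxidase genes, aod-3 rose (1.27 ± 0.41) and aod-1 did not pass (0.07 ± 0.34) in the authors' deposited table.

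Calls among nutrient genes differed from list to list. Among 7 phosphate genes, 2 rose (28.6%, against 6.99% of all tested genes) and 1 fell (14.3%, against 4.02%). Beside pho-3, the permease gene pho-5 stood at 81.1 in the rlp2 deletion and 24.8 in wild type (1.71 ± 0.51 in the authors' deposited table). The permease gene pho-4 moved the other way, at 38.2 in the rlp2 deletion and 99.7 in wild type (-1.39 ± 0.46, FDR = 0.0284, in the authors' deposited table). Their regulator genes nuc-1 (0.26 ± 0.23), nuc-2 (0.28 ± 0.15) and preg (-0.30 ± 0.31) did not pass in the authors' deposited table. The sulfur regulator gene cys-3 stood at 2610 without rlp2 and 4235 in wild type (-0.70 ± 0.19 in the authors' deposited table). It was the single call of 7 sulfur genes (14.3% fell, against 4.02% of all tested genes). None of 10 nitrogen genes and none of 7 quinate genes passed. Of 11 cellulose and hemicellulose genes, 2 rose (18.2%) and none fell. The cellobiose dehydrogenase gene cdh-2 stood at 120 in the rlp2 deletion and 3.99 in wild type (4.91 ± 0.72) and the cellobiohydrolase gene cbh-1 at 218 without rlp2 and 104 in wild type (1.08 ± 0.34) in the authors' deposited table. The regulators of these genes, clr-1 (0.40 ± 0.23), clr-2 (-0.11 ± 0.65), xlr-1 (0.52 ± 0.48) and cre-1 (0.53 ± 0.21), did not pass in the authors' deposited table. Among the 66 glycoside hydrolase genes with an FDR, 7 rose (10.6%, against 6.99% of all tested genes) and none fell (against 4.02%), and the list's 13 further members had no FDR.

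Genes close to chromosome ends rose more often than the rest, and the excess was steepest over the outermost 10. By gene order in the NC12 assembly, 41 of 118 tested genes within 10 genes of an end rose (34.7%) and 4 fell, with a median log2 fold change of 0.88. From rank 11 to 200 the share that rose lay between 8.27% and 10.9%, and beyond rank 300 it was 5.32% (263 of 4944). The 50 outermost genes of all 14 ends held 84 rises among 581 tested genes (14.5%) and 18 falls (3.10%), against 501 rises among the 7792 other genes with a position (6.43%) and 319 falls (4.09%). Of 686 genes in these windows 105 had no FDR. Rises were thus not limited to ends, since 501 of the 585 lay elsewhere.

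**Figure D3:**
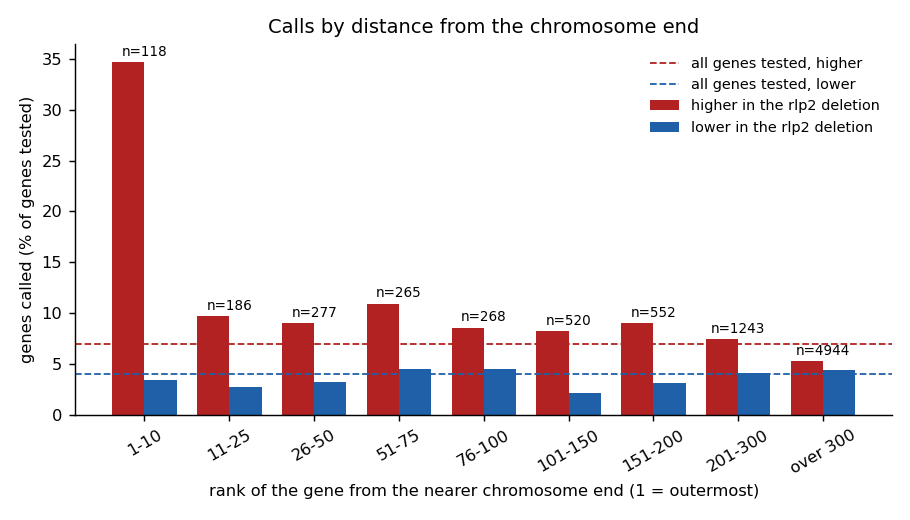
Share of tested genes called higher (red) or lower (blue) in the rlp2 deletion by rank from the nearer chromosome end, with the number tested above each pair of bars and dashed lines at the shares over all tested genes, 6.99% and 4.02%. The red bar of the outermost 10 genes reaches 34.7%, and the other red bars lie between 5.32% and 10.9%.

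The number of rises per end ranged from 0 to 20. On the right end of linkage group IV 20 of 44 tested genes rose, while on the left end of IV none of 44 and on the right end of II none of 46 did. The other 11 ends had 3 to 8 rises each. Without the right end of IV, 64 of 537 genes rose (11.9%). The outermost gene there, NCU10037, had an implied mean of 942 in the rlp2 deletion and 1.86 in wild type (8.99 ± 0.75 and FDR = 7.97e-30 in the authors' deposited table). Next to it NCU16906, NCU10038 and NCU10039 also rose, at 630, 1226 and 795 in the rlp2 deletion, against 0.465, 123 and 42.4 in wild type. NCU05173, a locus whose promoter drives a selection marker in the study's reporter strain, lies 23 genes in and stood at 268 without rlp2 and 1.86 in wild type. Its neighbour NCU05176, 25 genes in, stood at 1076 in the rlp2 deletion and 7.92 in wild type and rose by 7.09 ± 0.49 in the authors' deposited table (FDR = 6.42e-44). Between these clusters several genes did not pass, such as NCU05165 to cat-4, at ranks 14 to 19.

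On the right end of V, the rises clustered within the outermost 11 genes. NCU07150 had implied means of 787 in the rlp2 deletion and 6.44 in wild type (6.93 ± 0.60 and FDR = 1.98e-27 in the authors' deposited table). NCU07149 stood at 142 in the rlp2 deletion and 3.24 in wild type (5.46 ± 0.69 in the authors' deposited table). NCU07148 and NCU07147 were at 272 and 1484 without rlp2, against 0.467 and 0.173 in wild type. Further in, NCU07170 rose by 0.86 ± 0.19 and NCU07166 fell by 0.77 ± 0.23 in the authors' deposited table, and no other tested gene of that window passed. At the right end of VII the outermost gene NCU05903 stood at 235 in the rlp2 deletion and 6.88 in wild type (5.10 ± 0.47 and FDR = 1.87e-24 in the authors' deposited table), while the next one, NCU05902, was at -0.05 ± 0.19 in the authors' deposited table.

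**Figure D4:**
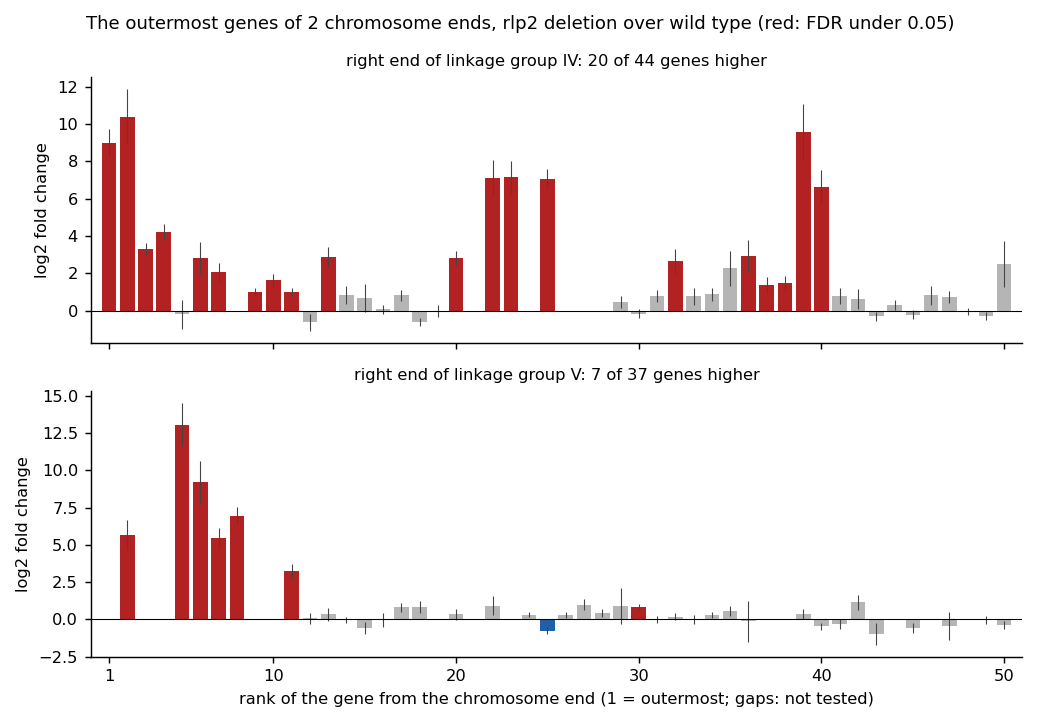
Log2 fold change of the rlp2 deletion over wild type (vertical axis, bars of 1 implied standard error) for tested genes ranked from the right ends of linkage groups IV and V, red where the gene rose, blue where it fell and grey where it did not pass. Red bars come in several clusters to rank 40 on IV (20 of 44 genes) and in 1 cluster to rank 11 on V, with 1 more at rank 30.

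Neighbouring genes rose together inside chromosomes as well. Runs of at least 3 neighbouring tested genes that all rose, skipping genes with no FDR, numbered 31 and held 117 of the 585 genes. Runs of genes that fell numbered 2 and held 6 of the 337. Of the 31 runs, 8 lay within 50 genes of an end and 17 lay more than 100 genes from one. Of all tested genes with a position, 581 lay within 50 genes of an end and 7259 more than 100 genes from one. For the 585 genes that rose these numbers were 84 and 449. Runs thus lay near ends in a larger share than tested genes or rises did. The longest run was 7 genes on linkage group III, from NCU09167 to NCU09174, 53 to 60 genes from the end. Its members had log2 fold changes from 1.12 to 8.25. NCU09174, well expressed in wild type, stood at 9055 in the rlp2 deletion and 4165 in wild type, and NCU09172 at 52.1 without rlp2 and 0.171 in wild type. The second was the 6-gene cluster at the right end of V.

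The third place was shared by 5 runs of 5 genes. That on linkage group IV that holds pho-3 and cbh-1 also holds NCU08644, NCU07343 and NCU07342, lies 413 to 418 genes from the end, and had log2 fold changes from 1.08 to 3.86. The run on VII that holds poi-2 and cat-2 also holds NCU17271, NCU05766 and NCU05767, 137 to 142 genes in, with values from 2.14 to 6.67. Genes of unlike function, a fruiting body gene and a catalase-peroxidase gene, thus rose within the same run there. On VI, NCU05105, NCU05106, NCU05107, NCU05113 and NCU05114 rose, 117 to 125 genes in, and NCU05106 stood at 59.1 in the rlp2 deletion and 0.171 in wild type. The remaining 2 lay at the right end of IV, from NCU05162 to NCU16905 and from NCU05187 to NCU05191.

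By linkage group, VI, VII and IV had the highest shares of tested genes that rose, at 9.60%, 9.19% and 9.03%. Linkage group I, the largest, had 4.67%, and there 98 of 2079 genes fell. Groups II, III and V lay between, at 4.88%, 6.41% and 7.43%.

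The rlp2 deletion was then set against each other deletion, gene by gene. All 4 deletions were compared with the same wild type libraries, which cancel in the difference of their log2 fold changes. Standard errors were taken as independent, which overstates the error, and p-values of the normal test (two-sided) were adjusted with Benjamini-Hochberg over all genes tested in both tables, for each of 3 pairs. Against the rlp1 deletion, 13 genes of 8344 were higher (0.156%) and 82 lower (0.983%) in the rlp2 deletion. Against the sds3 deletion, 339 were higher (4.06%) and 384 lower (4.6%). Against the eaf-3 deletion, 263 of 8349 were higher (3.15%) and 618 lower (7.4%). Many of these genes were called in the other deletion and not without rlp2. Against rlp1, 66 of the 82 lower genes had risen without rlp1 alone, and 12 of the 13 higher ones had fallen without rlp1 alone. The same counts were 277 of 384 and 276 of 339 against sds3, and 567 of 618 and 131 of 263 against eaf-3. The fewest differences by this test were found against rlp1, which does not show that the pair act alike.

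Several light-induced genes were lower without rlp2 than without rlp1. The gene vvd had an implied mean of 1362 in the rlp2 deletion and 10963 in the rlp1 deletion (difference -3.01 ± 0.57, adjusted p = 5.11e-05). The gene cry stood at 421 in the rlp2 deletion and 5297 in the rlp1 deletion (difference -3.65 ± 0.69, adjusted p = 5.72e-05). For al-1 the values were 2885 without rlp2, 22912 without rlp1, 15903 without sds3, 515 without eaf-3 and 518 in wild type. Its differences were -2.99 ± 0.60 from rlp1 (adjusted p = 0.000163), -2.46 ± 0.60 from sds3 (adjusted p = 0.00154) and 2.49 ± 0.60 from eaf-3 (adjusted p = 0.000804). The gene bli-4 followed the same order, at 1016 without rlp2, 6467 without rlp1, 5678 without sds3, 135 without eaf-3 and 112 in wild type, and differed from all 3. The rlp2 deletion thus held an intermediate level of both genes. Of the 16 genes in the list of photoreceptor, clock and bli genes, 3 were lower in the rlp2 than in the rlp1 deletion, and none was higher.

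Of 14 sexual development genes, 3 were higher and 2 lower without rlp2 than without sds3. The gene app stood at 1413 in the rlp2 deletion, 831 in the rlp1 deletion, 6.24 in the sds3 deletion, 89.997 in the eaf-3 deletion and 117 in wild type. It was higher without rlp2 than without sds3 by 7.82 ± 0.79 (adjusted p = 6.01e-20) and than without eaf-3 by 3.97 ± 0.65 (adjusted p = 1.24e-07). The gene per-1 went the other way, with an implied mean of 6.08 in the rlp2 deletion, 2073 in the rlp1 deletion, 244 in the sds3 deletion, 221 in the eaf-3 deletion and 1.86 in wild type. Its differences were -8.41 ± 1.19 from rlp1, -5.33 ± 1.19 from sds3 and -5.18 ± 1.19 from eaf-3 (adjusted p = 3.25e-09, 0.00052 and 0.000417). Against sds3 the rlp2 deletion was also higher for lao, an L-amino acid oxidase gene (479 without rlp2, 58.8 without sds3 and 1002 in wild type, difference 3.03 ± 0.45). The same held for the phospholipase C gene plc-1 (603 without rlp2, 152 without sds3 and 976 in wild type, difference 1.99 ± 0.28). Both lao and plc-1 fell without rlp2 as well as without sds3. The rlp2 deletion was lower for the alternative oxidase gene aod-1 (1535 without rlp2, 8926 without sds3 and 1459 in wild type, difference -2.54 ± 0.48). It was also lower for acu-6 (2678 without rlp2 and 10468 without sds3, difference -1.97 ± 0.41).

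Against the eaf-3 deletion, the 4 genes with a symbol and the smallest adjusted p that were lower without rlp2 were stk-53, stk-36, pho-2 and gh18-8, and the 4 that were higher were app, bli-4, al-1 and gh47-6. The kinase gene stk-53 stood at 7.38 in the rlp2 deletion, 669 in the eaf-3 deletion and 10.8 in wild type (difference -6.50 ± 0.73, adjusted p = 3.2e-16). The alkaline phosphatase gene pho-2 stood at 65.1 in the rlp2 deletion, 748 in the eaf-3 deletion and 83.4 in wild type (difference -3.52 ± 0.47, adjusted p = 1.26e-11). The family 18 glycoside hydrolase gene gh18-8 was at 6.52 without rlp2, 496 without eaf-3 and 6.85 in wild type (difference -6.25 ± 0.86, adjusted p = 8.43e-11). These genes rose without eaf-3 and did not pass without rlp2. The kinase gene stk-36 stood at 33.0 in the rlp2 deletion, 1273 in the eaf-3 deletion and 15.5 in wild type (difference -5.27 ± 0.66, adjusted p = 6.04e-13). In the other direction gh47-6, of a family with mannosidases, stood at 959 in the rlp2 deletion, 410 in the eaf-3 deletion and 980 in wild type (difference 1.23 ± 0.30, adjusted p = 0.00126). NCU05766 stood at 418 in the rlp2 deletion and 3.63 in the eaf-3 deletion (difference 6.85 ± 0.84), and NCU00787 at 853 without rlp2 and 51.6 without eaf-3 (difference 4.05 ± 0.53). NCU10037, the outermost gene on the right of IV, stood at 942 in the rlp2 deletion and 9.32 in the eaf-3 deletion (difference 6.66 ± 1.12).

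Apart from rlp2 itself, 19 genes differed between the rlp2 deletion and each of the other 3. Of these 13 were lower in the rlp2 deletion than in all 3, none was higher than in all 3, and 6 differed in both directions. All 3 differences use the same rlp2 deletion libraries, so they are not independent of each other. Of the 13 genes, only NCU03323 and NCU07088 passed against wild type. NCU03323, which fell without rlp2, had implied means of 113 in the rlp2 deletion, 455 in the rlp1, 593 in the sds3 and 473 in the eaf-3 deletion, and 194 in wild type. NCU02324 stood at 0.869 in the rlp2 deletion, against 319, 633 and 28.6 in the rlp1, sds3 and eaf-3 deletions and 5.02 in wild type. NCU16472 and NCU02913 lie 231 and 232 genes from an end of linkage group I, which also holds rlp2 at 217 genes from an end. NCU16472 stood at 124 in the rlp2 deletion, against 727, 1126 and 2037 in the rlp1, sds3 and eaf-3 deletions and 222 in wild type. NCU02913 stood at 61.1 in the rlp2 deletion, against 436, 491 and 957 in the rlp1, sds3 and eaf-3 deletions and 100.0 in wild type. Neither of that pair passed against wild type (FDR = 0.0582 and 0.275 in the authors' deposited table).

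**Figure D5:**
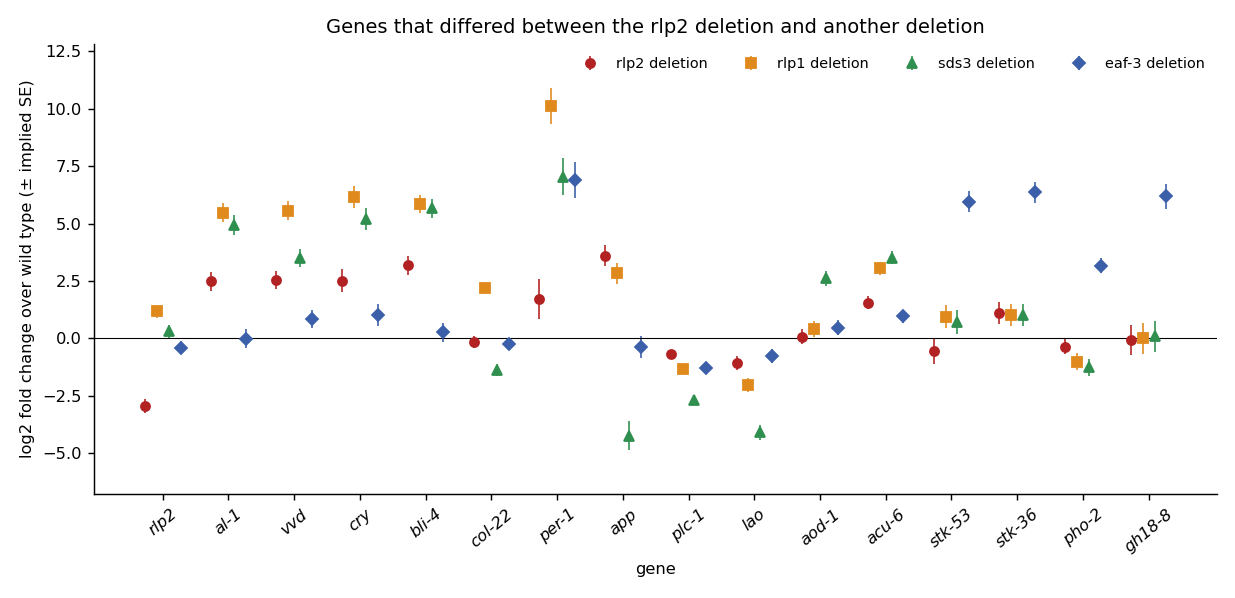
Log2 fold change over wild type, with bars of 1 implied standard error, of 16 genes that differed between the rlp2 deletion (red circles) and at least 1 of the rlp1 (orange squares), sds3 (green triangles) and eaf-3 (blue diamonds) deletions. For al-1 and bli-4 the rlp2 value lies between those of rlp1 and sds3 above and eaf-3 below, for per-1 it lies under all 3, and for app it lies 7.82 above sds3.

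Trichostatin A, an inhibitor of histone deacetylases, was applied in the series to another strain with its own untreated control, so this comparison shares no library with the rlp2 comparison by the labels. Of 8295 genes tested in both, 580 rose without rlp2, and 90 of them also rose with TSA, which is 15.5% of them and 20.9% of the 431 genes that rose with TSA, themselves 5.2% of genes tested in both. The opposite call, lower with TSA, was made for 9 of the 580. Of 337 genes that fell without rlp2, 23 fell with TSA (6.82% of them and 7.30% of the 315 that fell with TSA, themselves 3.8% of genes tested in both) and 11 rose. The median log2 fold change with TSA was 0.29 for the genes that rose without rlp2, -0.08 for those that fell and -0.08 for all. NCU02321 rose in both, by 3.09 ± 0.33 without rlp2 and 3.43 ± 0.39 with TSA in the authors' deposited table of each. NCU05176 rose by 7.09 ± 0.49 without rlp2 and by 4.18 ± 0.39 with TSA in the authors' deposited table of each. NCU04436 rose by 1.45 ± 0.45 without rlp2 and by 3.56 ± 0.30 with TSA in the authors' deposited table of each. The leucine synthesis gene leu-4 was among the opposite calls, falling by 0.92 ± 0.30 without rlp2 and rising by 1.27 ± 0.37 with TSA in the authors' deposited table of each.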

How the data were processed

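Messenger RNA of mycelium was sequenced by the authors, with STAR 2.7.3a, RSEM 1.3.1 and DESeq2 1.24.0 named per the submitters' processing notes; which tool did what, the build, gene models and strandedness of counting were not given in the sources used here. Each gene's row in the authors' deposited tables holds, by the file headers, an average (a normalized expression signal), a p-value, a log2 fold change, an FDR and a score for the authors' category. All 4 deletion tables carry one and the same deposited signal for 9477 genes. The deposited score marks FDR under 0.05 with an absolute log2 fold change over 2, in every row. Columns of single libraries numbered 0, so depth per library and its precision are unknown, and no count model, leave-one-out fit or check of replicates could be made. Genes with an average of 9.69 or less had no FDR.

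Groups follow the genotype in the labels. The standard error implied by a deposited p-value is the size of the log2 fold change over the two-sided normal quantile of that p-value. Implied means assume an average over 10 libraries in 5 equal groups; the lowest average, 0.0906, is close to the 0.1 that 1 read in 1 of 10 libraries gives. Differences between deletions were tested as described with them. Computations used Python 3.11.15, numpy 2.4.6, scipy 1.17.1 and pandas 2.3.3, and were tested on simulated data. Symbols, gene order and linkage groups come from RefSeq's NC12 table, which matched 9476 of 9477 genes and gives 1116 symbols; it may not be the build the authors used. No sequence is shown.

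Genes were described through 40 lists (646 genes) and by a rule: rlp2; among genes with an average of at least 20 and FDR under 0.05, the 12 rises and 12 falls with the smallest FDR, and the same among genes with a symbol; up to 5 called members per list with regulators or defining enzymes; 4 per direction of each difference, with and without a symbol; and the longest runs. NCU10038, NCU16906, NCU05902, NCU07166, NCU07170, cat-4, mei-3 and leu-4 with TSA were named after their values were seen, as were the genes shared with TSA and those that differ from all 3 deletions. The members, lists and tests were chosen with earlier results of these data known. Alternatives were other thresholds, no filter, a filter on the average, centring on the median, other windows at chromosome ends and another variance of the difference.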

Additional observations from a re-analysis of the deposited data

How the results depend on the processing

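No paired analysis was possible because the tables hold no values per library and the labels number no replicates of the deletion and wild type strains, and for the same reason leaving out a library could not be run. With FDR under 0.01, 353 genes rose and 182 fell, and by the authors' own category 171 and 15, so that the share of calls that rose was 66.0% and 91.9%, against 63.4% at FDR under 0.05. Without the filter on low values 561 rose and 318 fell, and centring the log2 fold changes on their median gave 614 and 320. Leaving out genes with an implied wild type mean under 10, an alternative chosen after seeing the data, left 518 and 336. The differences between deletions depended most on the error used. With the part of the variance that the shared wild type adds taken out, 56 genes were higher and 317 lower than without rlp1, 1005 and 1126 than without sds3, and 833 and 1287 than without eaf-3. At an adjusted p under 0.01, 45 were lower than without rlp1, 157 were higher and 196 lower than without sds3, and 126 and 407 than without eaf-3. The 100 outermost genes of each end held 136 rises, and 36 genes rose both without rlp2 and with TSA by the authors' category. The median of the constitutive heterochromatin list, -0.0073, was 0.0067 after centring, and no other list median and no named gene changed sign under the alternatives run. Counts of called list members did depend on the threshold. Among the calls lost at FDR under 0.01 were those of cao-1, arg-3, cyc-1, hsp60, leu-4, pho-4, pho-5, cbh-1, cat-1 and aod-3. So were those of bli-3, nop-1 and wc-1 in the photoreceptor and clock list, and of tim44 and tim54 in the mitochondrial import list. The calls of nrc-1 and hsp70-5 were lost both without the filter and with centring, that of NCU07088 without the filter, and NCU02700 and NCU07737 passed with centring.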

Other observations

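Over all tested genes 6.99% rose and 4.02% fell without rlp2. None of 17 proteasome genes passed (log2 fold changes from -0.08 to 0.54), none of 14 vacuolar ATPase genes (-0.05 to 0.26), none of 20 peroxin genes (-0.53 to 0.43), none of 6 chitin and glucan synthase genes and none of 6 heterokaryon incompatibility genes. Of 61 serine/threonine kinase genes with an FDR 1 fell (1.64%), stk-25, which had implied means of 209 in the rlp2 deletion and 451 in wild type (-1.11 ± 0.22, FDR = 2.72e-05, in the authors' deposited table). Of 13 genes of MAP kinase cascades 1 fell (7.69%), nrc-1, for a kinase at the top of one cascade, by 0.73 ± 0.26 in the authors' deposited table (FDR = 0.0472), and its downstream kinase gene mak-2 was at -0.25 ± 0.21 in the authors' deposited table. Of 16 genes of G protein and cAMP signalling 1 fell (6.25%), the receptor gene gpr-2, at 28.7 in the rlp2 deletion and 87.1 in wild type. Of 24 genes for DNA-binding regulators with growth phenotypes 1 fell (4.17%), col-20 (-1.15 ± 0.29 in the authors' deposited table).

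Of 37 DNA repair genes, 2 rose (5.41%, against 6.99% of all tested genes) and none fell, with a median of 0.35. The gene mus-53, for the DNA ligase of end joining, stood at 479 in the rlp2 deletion and 158 in wild type (1.60 ± 0.31, FDR = 1.91e-05, in the authors' deposited table). The gene mus-18, for an endonuclease that cuts at ultraviolet damage, stood at 418 in the rlp2 deletion and 123 in wild type and lies 36 genes from an end of linkage group V (1.76 ± 0.39 in the authors' deposited table). The end-joining genes mus-51 (0.36 ± 0.29) and mus-52 (0.45 ± 0.31) did not pass in the authors' deposited table. None of 10 genes of quelling and meiotic silencing passed. Beside cat-2, the catalase gene cat-1, known from conidia, stood at 1707 in the rlp2 deletion and 526 in wild type (1.70 ± 0.55, FDR = 0.0227, in the authors' deposited table), and cat-3, known from growing hyphae, was at -1.01 ± 0.46 (FDR = 0.149) in the authors' deposited table.

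Genes with no FDR numbered 1103, of which 25 had an unadjusted p under 0.05, 23 of them with a positive log2 fold change. The smallest of these p-values, 0.00168 in the authors' deposited table, was that of NCU05175, which lies 24 genes from the right end of linkage group IV, between NCU05173 and NCU05176, with implied means of 9.84 in the rlp2 deletion and 0.170 in wild type. NCU07152, the second locus that drives a marker in the reporter strain, had implied means of 12.1 in the rlp2 deletion and 0.472 in wild type and no FDR.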
